A study of Mus musculus with 12 samples.

Results

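The genes of the NMDA-type glutamate receptor were followed in the forebrain transcriptomes of Shank3 mutant and wild-type mice. They were chosen by symbol: Grin1, Grin2a, Grin2b, Grin2c, Grin2d, Grin3a and Grin3b. All 7 were present among the 19268 genes of the normalised count table, and all 7 passed the minimum mean of 10 normalised counts in every comparison. Total RNA was taken from forebrains of C57BL/6J males. The olfactory bulb had been left out, according to the study. The mice were juvenile, at postnatal day 25 (P25), or adult, at postnatal day 60 (P60). They were either wild-type (WT) or knock-out (KO). In KO both copies of Shank3 lacked a run of internal exons, so transcripts of the remaining exons can still be counted. There were 3 libraries, each named as a separate replicate, in each of the groups P25-WT, P25-KO, P60-WT and P60-KO.

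NMDA receptors are tetrameric cation channels that open only when glutamate and a co-agonist, glycine or D-serine, are bound and when depolarisation has lifted their magnesium block. Grin1 encodes GluN1, the glycine-binding subunit that every such receptor needs. Grin2a to Grin2d encode the glutamate-binding GluN2 subunits, which set the kinetics of the channel, and Grin3a and Grin3b encode glycine-binding GluN3 subunits, which lower its calcium permeability. In rodent forebrain the GluN2B subunit predominates around birth and GluN2A is added during the first postnatal weeks, which is why the balance of Grin2a to Grin2b is used as a measure of receptor maturation. Shank3 is linked to the receptor at the synapse through the scaffolds PSD-95 and the Dlgap proteins.

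The targeted gene was examined first. Shank3 had 4891, 4901 and 5729 normalised counts in the P25-KO libraries and 10401, 11683 and 10254 in the P25-WT libraries. At P60 it had 5186, 4535 and 5021 in KO and 10310, 8936 and 10142 in WT. At both ages every WT library held more than any KO library, which matches the labels. The forebrain markers Emx1, Neurod6, Tbr1 and Lhx2 were present in every library, the lowest value being 331 for Emx1. The summed normalised counts of a library ranged from 30568259 to 32348554. Every P25 total, from 31577834, was above every P60 total, up to 31077647. These are totals after the authors' normalisation, not sequencing depths, which are unknown. One pair of libraries, P60-KO replicate 1 and P60-WT replicate 2, held more RNA of cerebellar granule cell markers than the others, as described with Grin2c.

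Grin1 was the most abundant of the 7 genes and Grin3b the least. The values by library are plotted first.

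**Figure D1:**
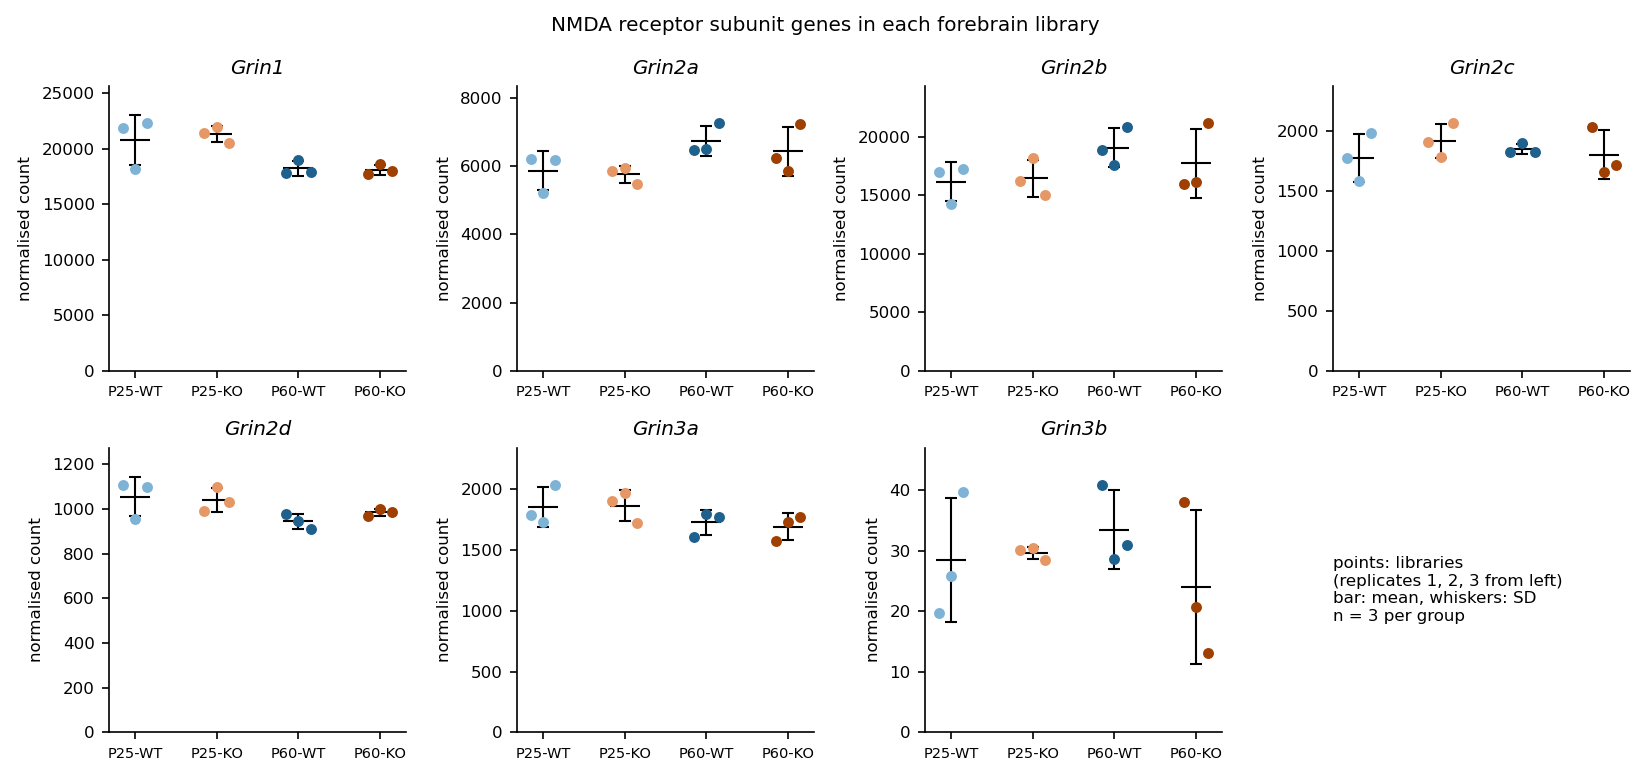
Normalised counts of the 7 NMDA receptor subunit genes (y axis, each panel from 0) in the 4 groups (x axis). Points are libraries, the bar is the mean and the whiskers the SD (n = 3). Grin1 at P60 sits between 17716 and 18984, below 5 of the 6 P25 libraries, while KO and WT points of an age intermingle in every panel.

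Grin1 had 21879.5, 18167 and 22307 normalised counts in P25-WT, and 21395.5, 21992 and 20551 in P25-KO. At P60 it had 17830, 18984 and 17900 in WT, and 17716, 18589 and 17957 in KO. P25-WT replicate 2 was the lowest juvenile library, and it alone fell within the adult range. The same library was also the lowest P25 library for Grin2a, Grin2b, Grin2c and Grin2d.

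Grin2a had 6223, 5204 and 6188 normalised counts in P25-WT, 5857, 5947 and 5473 in P25-KO, 6466, 6509 and 7263 in P60-WT, and 6228, 5849 and 7237 in P60-KO. Grin2b had 16932, 14224 and 17249 in P25-WT, 16205, 18147 and 14998 in P25-KO, 18861, 17540 and 20792 in P60-WT, and 15947, 16088 and 21142 in P60-KO. For both genes the third replicate of each P60 group was the highest of all libraries, and every P60-WT library lay above every P25-WT library. In KO the ages overlapped for both.

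Grin2c, the subunit best known from cerebellar granule cells, ranged from 1580 to 1981 in P25-WT, from 1784 to 2065 in P25-KO, from 1821 to 1900 in P60-WT and from 1655 to 2035 in P60-KO. Grin2d, an early subunit that persists in interneurons and in the diencephalon, ranged from 954 to 1108 in P25-WT, from 991 to 1100 in P25-KO, from 911 to 978 in P60-WT and from 969 to 1001 in P60-KO. Grin3a ranged from 1733 to 2037, from 1721 to 1965, from 1608 to 1796 and from 1570 to 1774 in the same order of groups. Grin3b, known mainly from motor neurons, had 19.7, 25.8 and 39.6 in P25-WT, 30.1, 30.4 and 28.5 in P25-KO, 40.9, 28.6 and 30.99 in P60-WT, and 37.9, 20.7 and 13.2 in P60-KO. The groups overlapped for each of these 4 genes in KO against WT at both ages. The transcripts of Grin3b share 27.0% of their 31-base words with transcripts of other genes, and most with Tmem259. That gene lies on the opposite strand, overlaps the 3′ end of Grin3b and had a mean of 3679 normalised counts. Whether the counting used strand is not given in the sources used here, so the level of Grin3b is uncertain. The corresponding shares with all other genes were 12.1% for Grin2a, 10.7% for Grin1, 8.65% for Grin2d and at most 1.38% for the others. The gene sharing most words was Gm7328 for Grin2a, the antisense gene Grin1os for Grin1 and the antisense gene Gm45441 for Grin2d. The members shared at most 0.12% of their words with each other.

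To set levels of different genes side by side, the normalised counts were divided by gene length, taken as all exons of the gene merged. Over the 12 libraries Grin1 had 2021 ± 192 normalised counts per kilobase (SD, n = 12), which was 2.90 times the level of Grin2b at 698 ± 85.4 (SD, n = 12). Grin2b in turn had 1.92 times the level of Grin2c, at 365 ± 29.5 (SD, n = 12). Grin2c and Grin2a, at 346 ± 34.4 (SD, n = 12), overlapped between libraries, as did Grin2d at 151 ± 9.79 and Grin3a at 145 ± 10.9 (SD, n = 12). Grin3b was last, at 8.76 ± 2.52 (SD, n = 12). The middle of this order, and the folds between genes throughout, depend on which length is used. Grin1 has 9700 bases of merged exons but 4276 in its longest coding transcript, against 24842 and 24060 for Grin2b. The coding sequence has 2877 bases in Grin1 and 4446 in Grin2b. Long untranslated ends are found in Grin2a, Grin2b and Grin3a. Grin1 had 6.36 times the level of Grin2b per kilobase of the longest coding transcript and 1.75 times per kilobase of coding sequence. With the coding sequence alone as the length, Grin1 had 6815 ± 647 and Grin2b 3901 ± 477 normalised counts per kilobase (SD, n = 12). On the same scale Grin2a had 1413 ± 141, Grin3a 524 ± 39.3, Grin2c 494 ± 40.0 and Grin2d 253 ± 16.4 per kilobase of coding sequence (SD, n = 12). Grin1, Grin2b and Grin3b kept the first, the second and the last place with each length. Of the GluN2 genes together, on the coding-length scale, Grin2b made up 64.2% ± 1.62, Grin2a 23.3% ± 0.65, Grin2c 8.22% ± 1.03 and Grin2d 4.22% ± 0.50 (SD, n = 12). On the merged-exon scale these shares were 44.6% ± 2.39, 22.2% ± 0.81, 23.5% ± 2.29 and 9.74% ± 0.97 (SD, n = 12).

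The first question was whether loss of intact Shank3 was accompanied by a change in receptor subunit transcripts. It was not detectably so. None of the 7 genes passed an adjusted p of 0.05 (limma, Benjamini-Hochberg over all tested genes) at either age. The background was equally bare: at P25 1 of 17515 tested genes passed (0.00571%), at P60 1 of 17610 (0.00568%) and over both ages 1 of 17594 (0.00568%), and that gene was Shank3 each time. The calls within each age ended under some alternatives, given with the processing. The study's own test, with DESeq2, called small sets of further genes, such as Yy2 and Fancm at P25 and Gstp1 and Lamb3 at P60. Few calls here therefore do not show that other genes were unchanged. At an unadjusted p under 0.05 there were 238, 440 and 319 genes, and none of the 7 was among them. No member had KO and WT libraries that did not overlap, whereas 4.76% of all tested genes had none overlapping at P25 and 7.79% at P60.

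At P25 the log2 fold change of KO against WT was 0.042 for Grin1 (95% interval -0.15 to 0.24), -0.024 for Grin2a (-0.22 to 0.17) and 0.029 for Grin2b (-0.19 to 0.25). It was 0.11 for Grin2c (-0.12 to 0.34), -0.017 for Grin2d (-0.23 to 0.19), 0.010 for Grin3a (-0.20 to 0.22) and 0.12 for Grin3b (-0.54 to 0.77). At P60 it was -0.012 for Grin1 (-0.11 to 0.086), -0.071 for Grin2a (-0.25 to 0.11) and -0.11 for Grin2b (-0.35 to 0.12). It was -0.044 for Grin2c (-0.22 to 0.14), 0.061 for Grin2d (-0.079 to 0.20), -0.029 for Grin3a (-0.19 to 0.13) and -0.57 for Grin3b (-1.41 to 0.27). The interval was narrowest for Grin1 at P60 and widest for Grin3b at P60. The median over the 7 genes was 0.029 at P25 and -0.044 at P60, beside -0.008 and 0.000 over all tested genes. The genotype by age interaction called none of 17594 genes (0%), with 288 at an unadjusted p under 0.05 and none of the 7 among them. Its estimates ran from -0.69 for Grin3b to 0.078 for Grin2d. Grin3b, the gene with the lowest values, depended most on single libraries. At P60 its KO difference ran from -0.96 to -0.23 when 1 library was left out, from -0.96 without P60-KO replicate 1 to -0.23 without P60-KO replicate 3. Without P60-KO replicate 1 and P60-WT replicate 2 it was -1.06 (95% interval -1.95 to -0.17, adjusted p = 0.9998).

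**Figure D2:**
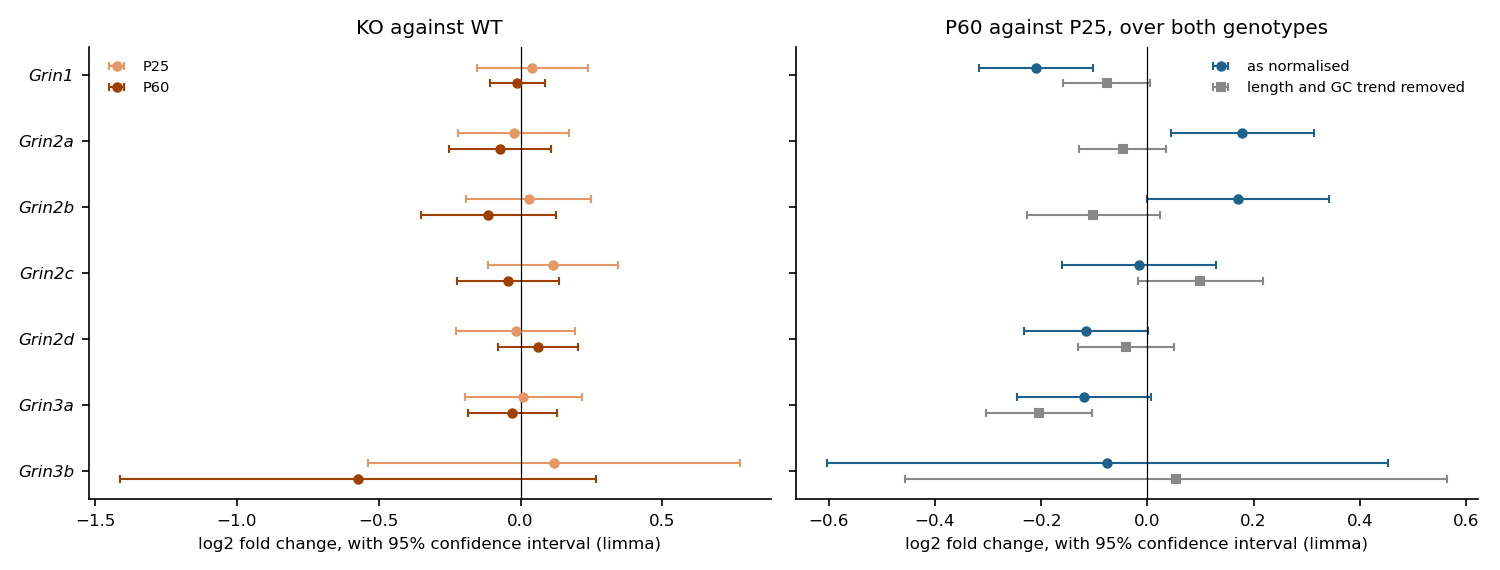
Log2 fold changes of the 7 genes with 95% confidence intervals from limma (x axis) for KO against WT at P25 and P60 (left) and for P60 against P25 over both genotypes (right), as normalised and after the length and GC trend of each library was removed. All KO intervals include 0, and in the age comparison removing the trend moves Grin1 from -0.21 to -0.076 and Grin2a from 0.18 to -0.046.

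The second question was whether the transcripts differed between the juvenile and the adult forebrain. Over both genotypes, Grin1 was lower at P60 than at P25 by 0.21 on the log2 scale (log2 fold change -0.21 ± 0.050 SE, adjusted p = 0.00561), a difference of -13.6%. Grin2a was higher by 0.18 ± 0.063 SE (adjusted p = 0.0382, 13.2%). These were 2 of the 7 genes, or 1 in each direction, against a background of 6323 of 17594 genes (35.9%), of which 17.5% were higher and 18.5% lower. The share of members called was no larger than that of all genes. Grin2b had a log2 fold change of 0.17 ± 0.080 SE (adjusted p = 0.109), Grin2d -0.12 ± 0.054 SE (adjusted p = 0.111) and Grin3a -0.12 ± 0.059 SE (adjusted p = 0.130). Grin2c, at -0.016 ± 0.067 SE, and Grin3b, at -0.075 ± 0.25 SE, were closest to 0. No member separated all P60 from all P25 libraries, as 19.6% of all genes did.

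Within genotypes the fits had 6 libraries each. In KO, Grin1 was the only one of the 7 that passed (log2 fold change -0.24 ± 0.047 SE, adjusted p = 0.00797), where 20.7% of 17596 genes passed. That call was lost without the variance trend (adjusted p = 0.0607) and with the trend on transcript length and GC content removed (adjusted p = 0.168). Its 3 P60-KO libraries all lay below its 3 P25-KO libraries, as was the case, in either direction, for 39.4% of all genes. In WT none of the 7 passed, where 8.65% of 17581 genes did. There Grin1 was at -0.18 ± 0.086 SE (adjusted p = 0.192), Grin2a at 0.20 ± 0.090 SE (adjusted p = 0.172) and Grin2b at 0.24 ± 0.093 SE (adjusted p = 0.128). The WT libraries of Grin2a and Grin2b did not overlap between ages, beside 36% of all genes. That Grin1 passed in KO and not in WT is not a difference between genotypes: the interaction for Grin1 was -0.053 ± 0.10 SE (adjusted p = 0.99996). Without P25-WT replicate 2, Grin1 in WT was at -0.28 (adjusted p = 0.00612).

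The call for Grin2a was the less stable of the 2. It was lost when any of 6 single libraries was left out, with log2 fold changes of 0.19 without P25-KO replicate 1 (adjusted p = 0.0582), 0.16 without P25-KO replicate 3 (0.0904), 0.14 without P25-WT replicate 2 (0.0640), 0.19 without P60-KO replicate 1 (0.0523), 0.14 without P60-KO replicate 3 (0.0982) and 0.15 without P60-WT replicate 3 (0.0995). Grin1 over both genotypes kept its call without any single library, with values from -0.26 to -0.18.

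Over the whole table, age differences went with the length and base composition of the transcripts. Across 17580 tested genes, the log2 fold change with age had a Spearman correlation of -0.358 with the GC content of the longest transcript and of 0.234 with its length (across genes, which are not independent replicates). With the genes in 5 equal bins, the median over the bin poorest in GC was 0.14, and over the bin richest in GC -0.15. Grin1, at 59.4% GC, belongs to the richest bin together with Grin2c (62.1%), Grin2d (65.0%) and Grin3b (63.5%). Grin2a, at 44.8% GC and 14634 bases, and Grin2b, at 45.7% and 24060 bases, lie in the second poorest bin for GC and in the longest bin, whose median was 0.11. Grin3a has 49.2% GC and 7491 bases.

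**Figure D3:**
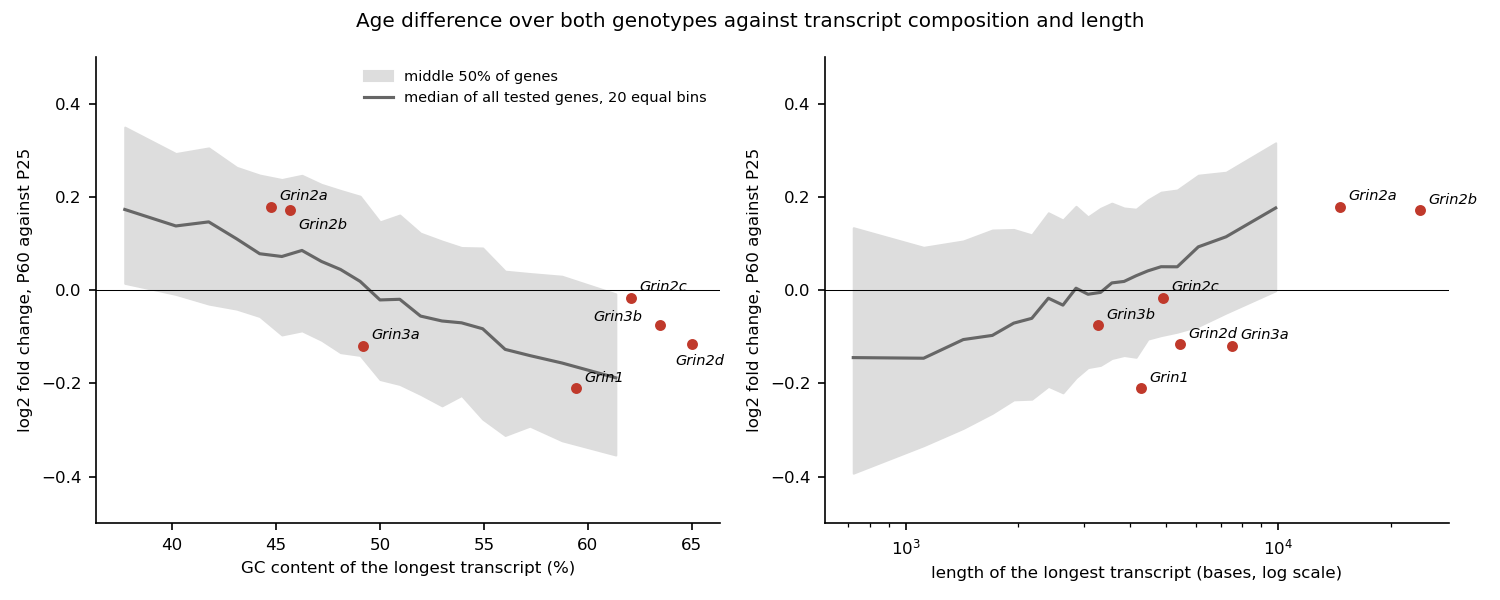
Log2 fold change of P60 against P25 over both genotypes (y axis) against GC content in percent (left) and length in bases on a log axis (right) of each gene's longest transcript. The line is the median and the grey band the middle 50% of all tested genes in 20 equal bins, and red points are the 7 members. Grin2a and Grin2b sit on the high side with the long, GC-poor genes and Grin1 on the low side with the GC-rich ones, while Grin3a lies below the median on both axes.

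When each library's trend on length and GC content was removed, an alternative added after the data had been seen, both calls ended. Grin1 over both genotypes was then at -0.076 ± 0.038 SE (adjusted p = 0.141), and Grin2a turned to -0.046 ± 0.038 SE (adjusted p = 0.380). Grin2b turned to -0.10 ± 0.058 SE (adjusted p = 0.199). Grin3a, in contrast, passed, at -0.20 ± 0.046 SE (adjusted p = 0.00457), as 31.9% of all genes did in that fit. In KO alone, Grin1 was at -0.10 (adjusted p = 0.168) and Grin3a at -0.20 (adjusted p = 0.0492), where 2879 of 17582 genes passed. The trend also varied between libraries of a group. P25-WT replicate 2 had a correlation of -0.395 between its deviations from the gene means and transcript length, the lowest of the 12, and its deviations of Grin2a (-0.25) and Grin2b (-0.28) were the lowest as well. P60-WT replicate 3 and P60-KO replicate 3 had the highest correlations with length, 0.255 and 0.213, and the highest deviations of Grin2a (0.23 in each) and Grin2b (0.27 and 0.29). The sources used here do not say how the libraries of the ages were handled, so age and such a trend cannot be told apart. In KO against WT the correlation with length was 0.113 at P25 and -0.187 at P60, and that with GC content 0.033 and 0.087.

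Cell type markers were counted in the same fit over both genotypes, in which 35.9% of all genes passed, 17.5% higher and 18.5% lower. In bulk tissue, fewer cells of a type and less RNA per cell cannot be told apart. Of 8 oligodendrocyte markers 7 were lower at P60, and their sum went from between 375436 and 491355 at P25 to between 186819 and 213231 at P60 over both genotypes. Of the oligodendrocyte precursor markers 5 of 6 were lower, of the astrocyte markers 5 of 8, of the glutamatergic neuron markers 4 of 8 and of the blood markers 5 of 5. The glutamatergic neuron sum was 122427 to 130420 at P25 and 110298 to 115626 at P60. GABA interneuron markers had 2 higher and 2 lower of 9, striatal projection neuron markers 1 lower of 8, microglia 2 lower of 8, endothelium 1 higher of 6, thalamus 1 in each direction of 6 and choroid plexus 2 higher of 5. Of 6 general forebrain markers 1 was higher and 2 lower. Motor neuron and brainstem markers had 1 in each direction of 4, and olfactory bulb markers none of 5. The shares called among striatal, microglia, endothelium, thalamus and olfactory bulb markers were below that of all genes. The part of these in the subunits' differences was not tested. No marker of any list passed in KO against WT at either age.

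The ratio of Grin2a to Grin2b was computed within each library, where scaling between libraries cancels. It was 0.368, 0.366 and 0.359 in P25-WT, 0.361, 0.328 and 0.365 in P25-KO, 0.343, 0.371 and 0.349 in P60-WT, and 0.391, 0.364 and 0.342 in P60-KO. Over all 12 libraries it stayed between 0.328 and 0.391, a span of 1.19-fold, and the groups overlapped throughout. The mean was 0.358 ± 0.015 at P25 and 0.360 ± 0.019 at P60 (SD, n = 6 each). P60 against P25 gave a log2 difference of 0.0085 (two-sided exact permutation test within genotypes, p = 0.84), and KO against WT -0.0049 (exact permutation test within ages, p = 0.89). The genotype by age difference was 0.096 (exact permutation test, p = 0.3). The smallest p these 400 arrangements allow is 0.005. Within 1 genotype or age, where 3 against 3 libraries cannot go below 0.1, the exact permutation p ranged from 0.4 to 0.7. A shift from Grin2b towards Grin2a between P25 and P60 was therefore not detectable in these transcripts.

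**Figure D4:**
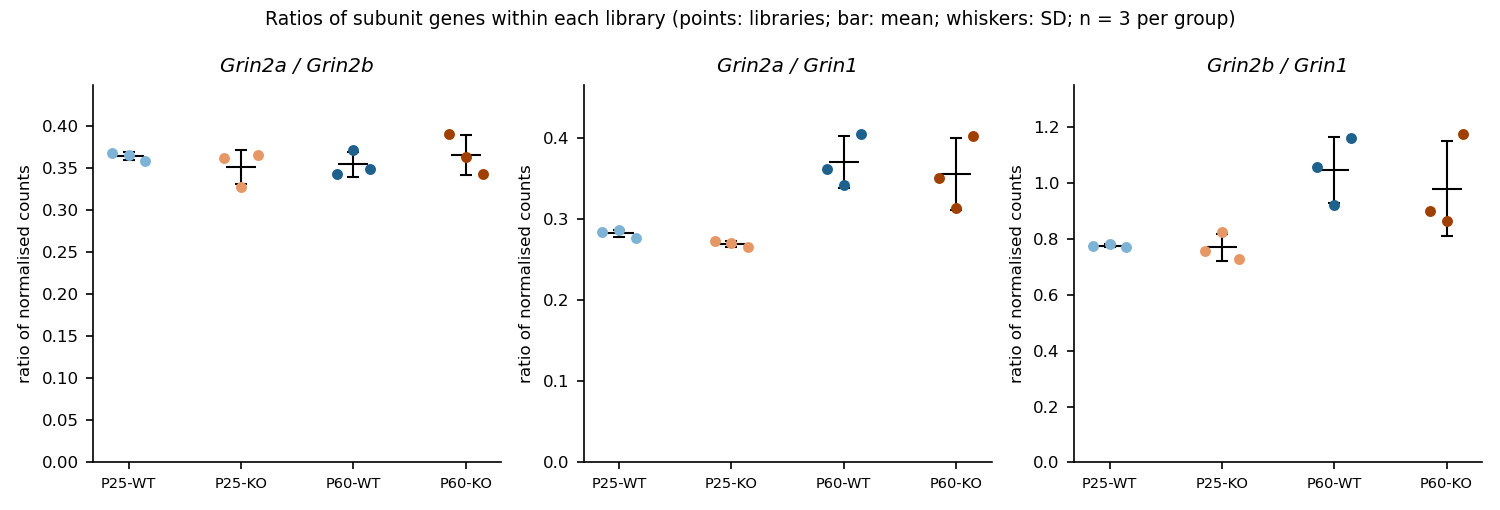
Ratios of normalised counts within each library (y axis, from 0) for Grin2a to Grin2b, Grin2a to Grin1 and Grin2b to Grin1 in the 4 groups (x axis). Points are libraries, the bar is the mean and the whiskers the SD (n = 3). The first ratio stays between 0.328 and 0.391 in all groups, while the ratios to Grin1 are higher in all P60 than in all P25 libraries.

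Grin2a and Grin2b were both higher relative to Grin1 at P60 in the table as deposited, a description chosen after the values were seen. Grin2a to Grin1 was 0.266 to 0.287 at P25 and 0.315 to 0.406 at P60, and Grin2b to Grin1 was 0.730 to 0.825 at P25 and 0.865 to 1.18 at P60, so the 6 libraries of each age did not overlap. The separation was gone once the trend on length and GC content was removed, when Grin2a to Grin1 was 0.297 to 0.341 at P25 and 0.292 to 0.342 at P60. The ratio of Grin2a to Grin2b, whose transcripts are alike in GC content, then had a mean of 0.352 ± 0.018 at P25 and 0.366 ± 0.022 at P60 (SD, n = 6 each).

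The highest ratios of Grin2a to Grin2b, 0.391 in P60-KO replicate 1 and 0.371 in P60-WT replicate 2, were found in the pair of libraries with the most cerebellar granule cell RNA. Granule cells of the cerebellum, which is no part of the forebrain, are a textbook site of Grin2a and Grin2c and have little Grin2b in the adult. Gabra6, a GABA receptor subunit of these cells, was at 68.5 and 221 normalised counts in the 2 libraries and at most 4.40 in the other 10, where 5 libraries were listed at 0. Cbln3 was at 138 and 624 against at most 27.5, and Fat2 at 161 and 495 against at most 63.0. Of the pair, P60-WT replicate 2 had more of each of these markers but the lower ratio and the lower Grin2c. The next highest ratio was 0.368 in P25-WT replicate 1, where Gabra6 was at 1.0. The sum of the 6 granule cell markers ranged from 2467 to 2731 at P25 and from 2277 to 4652 at P60, since Cbln1, Neurod1 and Zic1 are also expressed in forebrain, and 1 of the 6 was higher at P60. Grin2c was the highest of its group in the same libraries, at 2035 in P60-KO replicate 1 and at 1900 in P60-WT replicate 2, although P25-KO replicate 3, where Gabra6 was at 2.34, Cbln3 at 11.7 and Fat2 at 39.9, had the highest Grin2c of all at 2065, and P25-WT replicate 3 had 1981. Without the pair, Grin2c with age over both genotypes was at -0.071 ± 0.070 SE (adjusted p = 0.475), and the ratio of Grin2a to Grin2b had a log2 difference with age of -0.033 (exact permutation test, p = 0.4). Grin1 was at -0.22 (adjusted p = 0.0197) and Grin2a at 0.20 (adjusted p = 0.0644). The part of granule cell RNA in these values was otherwise not tested. Motor neuron and brainstem markers, of which Chat, Slc5a7, Isl1 and Prph were in the table, summed to between 485 and 659 in every library.

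The partners of the receptor were taken from 8 lists with 100 genes outside the receptor, written from general knowledge. In KO against WT only Shank3 passed among them at either age. Between P25 and P60 over both genotypes, 45 of the 100 passed, 22 higher and 23 lower (45.0%, beside 35.9% of all genes), and their median log2 fold change was 0.005 beside 0.004 over all genes. After removal of the length and GC trend 49 passed, 19 higher and 30 lower (49.0%, beside 31.9% of all genes in that fit). Of the 21 scaffolds, 4 were higher and 5 lower (42.9%), and with the trend removed 3 and 5 (38.1%). Dlg4, which encodes PSD-95, the scaffold that binds GluN2 tails, had 28588, 28605 and 26483 normalised counts in P25-WT and 21593, 20240 and 21218 in P60-WT, with similar values in KO. All P60 libraries lay below all P25 libraries, and the log2 fold change was -0.36 ± 0.037 SE (adjusted p = 1.63e-05), or -0.47 with the trend removed. Dlgap3, which links PSD-95 to Shank proteins, was lower by 0.45 ± 0.062 SE (adjusted p = 0.000168).

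Of the 20 kinases and phosphatases, 3 were higher and 6 lower (45.0%, beside 35.9% of all genes), and with the trend removed 3 and 9 (60%, beside 31.9%). Fyn, the Src-family kinase that phosphorylates GluN2B, had 4731, 4517 and 4424 normalised counts in P25-WT, 4744, 4609 and 4670 in P25-KO, 3329, 3081 and 2982 in P60-WT, and 3144, 3222 and 3111 in P60-KO. The ages did not overlap in either genotype (log2 fold change -0.55 ± 0.040 SE, adjusted p = 8.90e-07), and with the trend removed the value was -0.57. Prkca, a protein kinase C, was higher by 0.36 ± 0.057 SE (adjusted p = 0.000399). Of the 10 trafficking genes 2 were higher and 2 lower (40.0%), and with the trend removed 4 and 4 (80.0%). Gipc1, which encodes a PDZ protein of endosomes, was at -0.66 ± 0.083 SE (adjusted p = 7.92e-05), and Snx27, a sorting nexin, at 0.22 ± 0.046 SE (adjusted p = 0.00282).

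Of the 9 calmodulin and Ras genes 5 were higher and 1 lower (66.7%, beside 35.9% of all genes), and with the trend removed 3 and 3 (66.7%, beside 31.9%). The gene lower as normalised was Calm3, 1 of the calmodulin genes, at -0.42 ± 0.050 SE (adjusted p = 5.81e-05), and Rasgrf2, a calcium-dependent Ras exchange factor, was at 0.38 ± 0.059 SE (adjusted p = 0.000361). Of the 10 genes linked to the subunit switch, which include REST, histone deacetylases and reelin signalling, 4 were higher and 2 lower (60%), and with the trend removed 1 was higher and 3 lower (40.0%). Lrp8, a reelin receptor, was at 0.44 ± 0.068 SE (adjusted p = 0.000353). Of 14 genes of co-agonist supply 4 were lower and none higher (28.6%), and with the trend removed 2 were higher and 2 lower (28.6%). Of 5 genes of glutamate clearance 1 was in each direction (40.0%), and with the trend removed 1 was higher and 2 lower (60%). In KO alone, Slc6a5, a glycine transporter of brainstem and spinal glycinergic neurons, was at 2.22 ± 0.64 SE (adjusted p = 0.0342), with 219, 46.0 and 29.9 normalised counts at P25 and 494, 404 and 159 at P60, groups that overlap. In WT it had 266, 64.7 and 241 at P25 and 196, 557 and 104 at P60. Its highest libraries were the pair with granule cell markers, and in KO its call was lost without P60-KO replicate 1 (log2 fold change 1.90 ± 0.70 SE, adjusted p = 0.103).

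Of the 11 AMPA, kainate and delta receptor genes, 3 were higher and 2 lower (45.5%, beside 35.9% of all genes), and with the trend removed 2 and 2 (36.4%, beside 31.9%). Gria2, the AMPA subunit that makes the channel impermeable to calcium, had 13496, 12605 and 14818 normalised counts in P25-WT and 18404, 19711 and 20818 in P60-WT, and rose in both genotypes together by 0.50 ± 0.054 SE (adjusted p = 2.78e-05). With the trend removed its log2 fold change was 0.21 (adjusted p = 0.000485). Gria3 went from 0.28 ± 0.058 SE (adjusted p = 0.00227) to 0.10 (adjusted p = 0.0671), so its call ended. Grik5, a kainate receptor subunit, was at -0.34 ± 0.048 SE (adjusted p = 0.000176) and at -0.21 with the trend removed. The calls of Dlg4, Fyn, Calm3, Gipc1, Dlgap3, Grik5, Gria2, Lrp8, Rasgrf2, Prkca and Snx27 were kept in that fit. All of these except Dlg4 and Fyn had smaller differences there, with Calm3 at -0.26, Prkca at 0.22 and Snx27 at 0.13.

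The subunits fell into separate patterns over the 12 libraries. Grin2a and Grin2b ran together (Pearson r = 0.931 of log2 values, 12 libraries), and Grin1 ran with Grin2d (r = 0.844) and Grin3a (r = 0.774), while Grin1 with Grin2a was at -0.326. These libraries share ages, normalisation and the trends above, so the values are descriptions. Among 12176 genes with a mean of at least 100 normalised counts, those most like Grin1 included Dnm1 (r = 0.980) and Lhfpl4 (r = 0.967). Those most like Grin2a were Sel1l (0.967), Tnr (0.963) and Zfp871 (0.961), and those most like Grin2b were Clstn2 (0.968), Tnr (0.964) and Neo1 (0.960). Grin2d was most like Sf3b4 (0.937), Plxnd1 (0.931) and Hcn4 (0.915), and Grin3a most like Lrrc8b (0.947), Nyap2 (0.936) and Pcdh19 (0.934). Grin2c was most like Ddx51 (0.860), Znrf1 (0.834) and Farsa (0.831), and Grin3b most like Pgghg (0.891), Zfp512b (0.792) and Flad1 (0.785).

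For the pair Grin1 and Grin2d, which ran together over the libraries, the reference sequence around the start that RefSeq gives the gene is shown, from 250 bases before to 50 bases after it, 5′ to 3′ on the gene's own strand (GRCm38.p6). The window of Grin1 is chr2:25319138-25319437 on the minus strand and that of Grin2d chr7:45866632-45866931 on the minus strand. The RefSeq start of Grin1 is also its outermost start in GENCODE, whereas that of Grin2d lies 11697 bases inside the gene as GENCODE annotates it. Capitals mark the GC box, GGGCGG or its reverse complement.
Grin1: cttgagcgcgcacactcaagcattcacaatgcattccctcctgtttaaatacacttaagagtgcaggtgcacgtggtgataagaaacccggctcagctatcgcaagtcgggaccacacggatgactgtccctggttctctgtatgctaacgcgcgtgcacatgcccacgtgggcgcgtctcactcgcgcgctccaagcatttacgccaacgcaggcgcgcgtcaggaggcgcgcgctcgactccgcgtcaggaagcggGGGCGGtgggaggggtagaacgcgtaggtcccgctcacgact
Grin2d: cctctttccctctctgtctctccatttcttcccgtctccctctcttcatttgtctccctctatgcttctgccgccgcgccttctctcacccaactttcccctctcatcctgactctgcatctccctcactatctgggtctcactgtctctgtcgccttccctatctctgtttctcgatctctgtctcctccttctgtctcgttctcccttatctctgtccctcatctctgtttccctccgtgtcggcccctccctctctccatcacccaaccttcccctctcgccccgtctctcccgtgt

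The table of such windows held 4 of the 7 genes, Grin1, Grin2c, Grin2d and Grin3b. The GC box occurred 1 time in the window of Grin1, 3 times in that of Grin2c and not in those of Grin2d and Grin3b, and 35.7% of all 32851 windows held it. The window of Grin2d is rich in cytosine and thymine and has 56.0% GC, and that of Grin1 has 60.7% GC, beside a median of 52.7% over all windows. The cAMP response element TGACGTCA (1.79% of all windows) and TTCAGCACC (0.37%) and GGACAGC (6.56%), the 2 parts of the element bound by REST, were in none of the 4 windows on either strand. TATAAA (13.6% of all windows) was in that of Grin3b alone. Matches of the same motif may overlap, as for a pair of the GC boxes of Grin2c, and a motif in a window is a match of letters, not a site.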

How the data were processed

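According to the study's methods and the submitters' processing notes, the authors quantified TruSeq libraries with Salmon 1.1.0 with GC bias correction, imported the estimates with tximport and normalised them with DESeq2. The deposited values are signal on a count scale, not whole reads (2.34% lie within 0.01 of a whole number), so depth is unknown and no count model was fitted. With 3 libraries in a group, precision is limited. The notes name GRCm38, R 3.6.2 and DESeq2 1.26.0, whereas the study's methods give later versions of R and DESeq2, and which versions made the table is not known. The transcript set and strand setting are not given in the sources used here. Symbols, lengths, GC content and positions came from GENCODE release M21 (GRCm38), which matched 19252 of the 19268 identifiers.

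Genes with a mean of at least 10 in the libraries of a fit were tested with limma 3.58.1 (R 4.3.3, eBayes with trend) on log2(value + 1), which understates changes of low genes, with Benjamini-Hochberg adjustment over all genes and a threshold of 0.05. It was tested on simulated data without a length and GC trend, with changes larger than those of the members in the main fits. That test does not show its power for small differences. Ratios were compared by exact permutation. P-values measure the spread between these libraries, which the labels name only as replicates. The members and lists were chosen with earlier results of these data known. Named genes were the 7 members, Shank3, up to 6 listed partners per direction with the smallest adjusted p, and the 3 genes most like each member over the libraries. A few of the genes so chosen are not reported here. Alternatives changed the pseudocount, filter, scaling, variance model and libraries, added the replicate number as a block, and, after the data had been seen, removed each library's length and GC trend (a spline of 5 degrees of freedom for each property), or left out P60-KO replicate 1 and P60-WT replicate 2.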

Additional observations from a re-analysis of the deposited data

How the results depend on the processing

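In KO against WT, no member passed under any alternative. Leaving out 1 library at a time turned the sign of Grin1 (-0.052 to 0.096), Grin2a (-0.11 to 0.020), Grin2b (-0.059 to 0.093), Grin2d (-0.087 to 0.021), Grin3a (-0.036 to 0.081) and Grin3b (-0.11 to 0.38) at P25, and of Grin1 (-0.032 to 0.018), Grin2c (-0.14 to 0.014) and Grin3a (-0.078 to 0.024) at P60. Grin2a at P60 ran from -0.16 to -0.005 and Grin2b from -0.25 to -0.044, and they were at -0.023 and -0.046 with the length and GC trend removed. Grin3a was then at -0.003 (P25) and 0.001 (P60). Without P60-KO replicate 1 and P60-WT replicate 2, Grin1 was at 0.032, Grin3a at 0.054 and Grin3b at -1.06 at P60. Grin3b in KO with age was at -0.80 without P60-KO replicate 1 (adjusted p = 0.130), against -0.42. With age, leaving out 1 library turned Grin2c in WT (-0.019 to 0.14), Grin2b in KO (-0.034 to 0.17), and Grin2c (-0.061 to 0.025) and Grin3b (-0.27 to 0.098) over both genotypes. With the trend removed, Grin2a and Grin2b were at -0.037 each in WT and at -0.053 and -0.16 in KO, where Grin2c was at 0.026 and Grin2d at 0.006. Over both genotypes Grin2a was then at -0.046, Grin2b at -0.10, Grin2c at 0.10 and Grin3b at 0.054. With all libraries brought to equal totals, Grin2c was at 0.027 and Grin2b passed (0.21, adjusted p = 0.0491). Without the variance trend, the calls of Grin2a over both genotypes (adjusted p = 0.0791) and of Grin1 in KO (adjusted p = 0.0607) were lost. Without P25-WT replicate 2, Grin2d passed over both genotypes (-0.15, adjusted p = 0.0200). The cause of these changes was not tested.

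The ratio of Grin2a to Grin2b passed under no alternative. Leaving out 1 library gave log2 differences of -0.016 to 0.032 with age of -0.029 to 0.020 for KO against WT and of 0.047 to 0.14 for the genotype by age difference, and leaving out both libraries with granule cell markers -0.033 with age. A paired version flipped the signs of differences between same-numbered libraries, although the numbers were not taken to pair libraries. Its exact sign-flip p-values were 0.813 with age, 0.844 for KO against WT and 0.5 for the genotype by age difference. The last had only 1 difference per replicate number, so its p-value could not become small.

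Genes called in KO against WT at P25 numbered 1, and 0 without the variance trend, with the replicate block or with the length and GC trend removed, and 0 to 8 without 1 library. The gene was Shank3, whose log2 fold change was -1.06 as normalised (adjusted p = 0.0134) and -1.09 with the trend removed (adjusted p = 0.178). At P60 there were 1, and 0 without the variance trend, 3 without both libraries with granule cell markers and 1 to 3 without 1 library. Over both ages 1 to 2 and in the interaction 0 to 1 were called without 1 library. With age in WT, 1521 genes passed, against 192 without the variance trend, 3442 with all 12 libraries in the fit, 375 without both libraries with granule cell markers and 122 to 2403 without 1 library. In KO, 3641 passed, against 1725, 2500 with all 12 libraries, 2323 and 2093 to 3230. Scaling to equal totals moved the median of all genes by under 0.1 and the split over both genotypes from 3071 higher and 3252 lower to 3874 and 2617, in WT from 644 and 877 to 991 and 681, and in KO from 1649 and 1992 to 2108 and 1620. The replicate block gave 1791 genes with age in WT, 2482 in KO and 6380 over both genotypes, and changed no call of a member. Same-numbered libraries did not deviate together by more than 0.1 in every pair of any comparison (correlations from -0.0719 to 0.166), so the numbers were not taken to pair libraries, although each library correlated best with its own number at P60. Grin1, Grin2b and Grin3b and no other subunit kept their rank (3 of 7) when levels were set per length of the longest coding transcript or of the coding sequence. With unknown depth, no detection limit can be given for Grin3b.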
